A study of Mus musculus with 4 samples.

Results

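The chemokine ligand genes Ccl1, Ccl3, Ccl4, Ccl5 and Xcl1 were examined in thymic invariant natural killer T (iNKT) cells, as 5 of the 31053 genes in the count tables, found by their symbols. These genes were selected on their measured values in the same 4 libraries, including the higher Ccl1 total in the knockout. Their differences between genotypes and between cell classes are therefore descriptions and carry no test.

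Chemokines are small secreted proteins that attract cells bearing matching receptors, and T cells and NK cells release several of them when activated or stored in a primed state. Ccl1 acts on the receptor Ccr8, and Xcl1 acts on Xcr1, which marks cross-presenting dendritic cells. Ccl3, Ccl4 and Ccl5 are inflammatory CC chemokines, and Ccl3 and Ccl5 act on Ccr1. In the thymus, iNKT cells pass from a CD24-positive stage 0 into the effector subsets iNKT1, iNKT2 and iNKT17, of which iNKT1 cells share much of the NK cell program.

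On GRCm38 (GENCODE vM21), 4 of the genes lay on chromosome 11. Ccl5 spanned chr11:83525778-83530518, Ccl3 chr11:83647844-83649355 and Ccl4 chr11:83662584-83664683, and the gap between Ccl3 and Ccl4 was 13228 bases. Ccl1 stood 1220087 bases from Ccl5, at chr11:82176657-82305690. That span came from 1 long transcript model, while its other 2 models ended at 82179812, and the counts per gene do not separate the models. Xcl1 lay at chr1:164931644-164935527 and overlapped 1 annotated gene, Gm20743. RefSeq's promoter table for GRCm38.p6 held 3 of the 5 genes, and the 250 bases before the start site are shown for Ccl1 and Xcl1, since these 2 ligands were high in the same few knockout cells. Both windows are on the minus strand, at chr11:82179813-82180062 for Ccl1 and chr1:164935523-164935772 for Xcl1, and capitals mark the match to the NF-kB consensus.
Ccl1: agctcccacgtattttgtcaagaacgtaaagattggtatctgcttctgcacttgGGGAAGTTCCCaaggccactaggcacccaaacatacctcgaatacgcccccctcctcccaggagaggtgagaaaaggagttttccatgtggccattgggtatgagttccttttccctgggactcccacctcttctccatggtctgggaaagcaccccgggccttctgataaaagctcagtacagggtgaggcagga
Xcl1: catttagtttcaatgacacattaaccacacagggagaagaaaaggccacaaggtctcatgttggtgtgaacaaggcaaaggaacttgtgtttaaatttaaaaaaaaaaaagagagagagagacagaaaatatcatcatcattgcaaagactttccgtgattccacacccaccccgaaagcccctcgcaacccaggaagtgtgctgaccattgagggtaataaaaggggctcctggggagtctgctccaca

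Both strands were searched. The capital stretch of the Ccl1 window held 2 overlapping NF-kB matches, 1 per strand, beginning 196 and 195 bases before the start, and 7.25% of all 32851 promoter windows held at least 1. The Xcl1 and Ccl3 windows held none. The NFAT core GGAAA matched 3 times before Ccl1, 2 times before Ccl3 and 1 time before Xcl1, against 55.6% of all windows with a match. The T-box element GGTGTGA matched 1 time, before Xcl1 (3.33% of all windows), and the Runx element TGTGGT matched 1 time each before Ccl3 and Xcl1 (14.0% of all windows). The AP-1 element TGANTCA was in none of the 3 windows and in 6.75% of all windows.

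The study sorted PBS57-CD1d tetramer+ thymocytes as an equal mix of CD44low and CD44high cells from untreated 8- to 9-week-old mice, 2 C57BL/6 and 2 Hivep3-/-, and sequenced each mouse as 1 library with 10x 5′ chemistry. Hivep3-/- mice lack Hivep3, which encodes a zinc finger protein, through a deletion not described as limited to iNKT cells, and were backcrossed to C57BL/6. UMIs (unique molecular identifiers, each marking 1 captured transcript) were summed over the cells of a library, and levels are given as CPM, counts per 1000000 UMIs on scaled library sizes, or as unscaled CPM on the plain UMI totals. The thresholds of the study left 7231 and 3651 C57BL/6 cells and 4598 and 4167 Hivep3-/- cells, with 25518692 to 45022744 UMIs per library. The median C57BL/6 cell held 4596 and 5268 UMIs and the median Hivep3-/- cell 6833 and 6491, so shares of cells with a UMI were also taken after thinning each cell to 2000 UMIs. This left out the shallower cells, 502 and 91 of C57BL/6 replicates 1 and 2 and 82 and 75 of Hivep3-/- replicates 1 and 2. Clusters were found with the 5 ligands left out of the clustering genes and were named from marker genes as stage 0-like, cycling-like, iNKT2-like, iNKT17-like and iNKT1-like. The T cell gene Cd3e had a UMI in 98.2% to 99.8% of the cells of each library, and the B cell gene Cd79a in 0.168% or less. The targeted gene Hivep3 had 1735 and 929 UMIs in the C57BL/6 libraries but 3464 and 2122 in those labelled Hivep3-/-, so its 5′ UMIs were not lower there and did not check the genotype. C57BL/6 replicate 1 had 17330 Xist and 0 Y-linked UMIs, while the other 3 libraries had 3 to 25 Xist and 4107 to 5590 Y-linked UMIs, so sex and that library cannot be told apart. The study's results describe these C57BL/6 mice as female, which the Y-linked UMIs of C57BL/6 replicate 2 go against. Its methods say in general that both sexes were used. Each pair of libraries shared 18 to 43 barcodes.

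Ccl1, the ligand of Ccr8, was higher in both knockout libraries, and the excess sat in very few cells. The C57BL/6 libraries held 3 and 3 Ccl1 UMIs, and the Hivep3-/- libraries held 487 and 460. These were 0.0666 and 0.118 unscaled CPM against 14.2 and 14.7, so the groups did not overlap. The pooled ratio was 170 with an exact 95% counting interval of 77.9 to 465. The interval covers counting error only, treats UMIs as independent and rests on 6 C57BL/6 UMIs.

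Those UMIs came from 11 cells of Hivep3-/- replicate 1 and 15 cells of replicate 2, or 0.239% (95% Wilson interval 0.134% to 0.428%) and 0.360% (0.218% to 0.593%) of the cells. In the C57BL/6 libraries 3 cells each had 1 UMI, which was 0.0415% (0.0141% to 0.122%) and 0.0822% (0.0279% to 0.241%). The interval of C57BL/6 replicate 1 lay below both knockout intervals, while that of C57BL/6 replicate 2 reached into both. Cells are not replicates, so this compares counting error only and is no test of genotype. These shares were not thinned, and the knockout cells were deeper. After thinning to 2000 UMIs, 1 and 2 C57BL/6 cells and 7 and 7 Hivep3-/- cells had a Ccl1 UMI. In each knockout library a single cell held most of the UMIs. The top cell of replicate 1 held 357 UMIs, or 73.3% of the library's Ccl1, and that of replicate 2 held 344, or 74.8%. The next cells held 60 and 30 UMIs in replicate 1 and 59 and 23 in replicate 2, so the top 3 cells carried 91.8% and 92.6%. Cells with 1 UMI numbered 2 and 7.

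Cells with 10 or more Ccl1 UMIs were seen only in the knockout libraries, 5 in replicate 1 and 4 in replicate 2 (0.109% and 0.0960% of cells). The C57BL/6 libraries had 0 of 7231 and 0 of 3651, with Wilson intervals up to 0.0531% and 0.105%. The knockout intervals, 0.0465% to 0.254% and 0.0373% to 0.247%, overlapped both of them. Without these 9 cells, the knockout libraries kept 16 and 24 Ccl1 UMIs (0.469 and 0.770 unscaled CPM), and the pooled ratio fell to 7.20. Single cells still held 8 of the 16, and 8 and 5 of the 24. The cut could take out knockout cells only, since every C57BL/6 cell with Ccl1 held 1 UMI. Without the top 10 cells of each library, 1 and 5 UMIs remained in the knockout and 0 in both C57BL/6 libraries. These removals use the Ccl1 count itself and describe how concentrated it was.

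**Figure D1:**
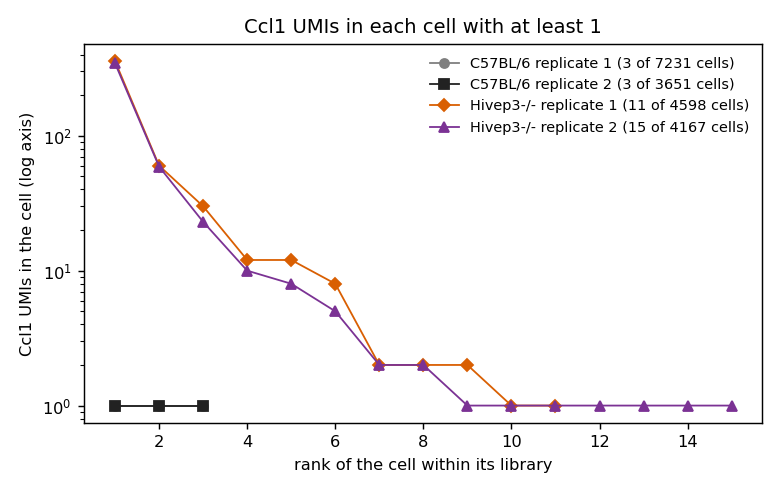
Ccl1 UMIs (log axis) in each cell with at least 1, against the rank of the cell within its library; each point is a cell and each line a library. The 2 Hivep3-/- libraries start at 357 and 344 UMIs and drop to 12 or fewer by the fourth cell, while every C57BL/6 cell with Ccl1 holds 1 UMI.

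Among classes, Ccl1 was at 0 UMIs in stage 0-like cells of all 4 libraries. Most of it fell in cluster 4, an unnamed cluster with Gzmb and Gzmc among its leading genes, which held 461 of the 487 UMIs in Hivep3-/- replicate 1 and 364 of the 460 in replicate 2 (94.7% and 79.1%). This cluster made up 10.7% and 7.34% of the knockout cells and 3.50% and 8.41% of the C57BL/6 cells. Only 5 of its 493 cells and 4 of its 306 cells had a Ccl1 UMI in the knockout (1.01%, interval 0.434% to 2.35%, and 1.31%, 0.509% to 3.31%). None of the 253 and 307 C57BL/6 cells of cluster 4 had one (Wilson intervals up to 1.496% and 1.24%), so the intervals of all 4 libraries overlapped within cluster 4. The other large Ccl1 cells lay in iNKT2-like cells (59 UMIs, replicate 2), in the unnamed cluster 12, which had 3 cells in that library (23 UMIs, replicate 2), and in the iNKT1-like cluster 1 (12 UMIs, replicate 1). The 26 knockout cells with Ccl1 were spread over 5 clusters in replicate 1 and 8 in replicate 2. Ccl1 reached 1.38 and 0.827 CPM in iNKT1-like cells of the knockout against 0.106 and 0.392 CPM in C57BL/6, and these values rest on 23, 9, 1 and 3 UMIs.

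The 9 cells with 10 or more Ccl1 UMIs all had Xcl1 and the Ccl1 receptor gene Ccr8. Both were common in the knockout cluster 4 cells without Ccl1. There 86.7% and 90.7% had Xcl1 and 69.7% and 68.5% had Ccr8 (replicates 1 and 2). The Xcl1 counts of the 9 cells were 176, 70, 84, 5 and 249 UMIs in replicate 1, in order of falling Ccl1. In replicate 2 the counts were 288, 40, 31 and 10. Summed, they held Xcl1 at 9665 and 9123 unscaled CPM in replicates 1 and 2, against 764 and 850 in the cluster 4 cells without Ccl1. Ccr8 was at 480 and 470 unscaled CPM against 240 and 241. Other genes of this small set were named after their values were seen. Tnfrsf9, which encodes the costimulatory receptor 4-1BB, was at 761 and 519 unscaled CPM against 52.7 and 50.9. Il2ra, which encodes the high-affinity IL-2 receptor chain, was at 331 and 223 against 9.14 and 7.50, and 19 of its 29 UMIs over the 9 cells came from the top cell of replicate 1. Only 6 of the 9 cells lay in cluster 4 themselves, 4 of 5 in replicate 1 and 2 of 4 in replicate 2. Gzmb, a granzyme gene that leads cluster 4, was lower in the cells of replicate 1, at 414 unscaled CPM against 1240. In replicate 2 Gzmb was at 668 against 1174. There the 2 cells inside cluster 4 held 7 and 19 Gzmb UMIs and the 2 outside it 0 and 1, so no direction is given for that library. Tbx21, which encodes the iNKT1 factor T-bet, was at 82.7 and 0 in replicates 1 and 2 against 136 and 94.4. The cytokine gene Il13 was at 2036 unscaled CPM in replicate 1, but 121 of its 127 UMIs over the 9 cells came from the top cell of replicate 1. Cd3e had UMIs in all 9 cells. None of the 8 myeloid, 3 B cell or 4 mast cell and basophil genes listed as markers had a UMI in them. The 5 NK cell and ILC genes had 4 and 2 UMIs (replicates 1 and 2), the 3 gamma delta T cell genes had 6 and 17, and the 4 double positive thymocyte genes had 14 and 0, all in 1 cell, of which 12 were Cd8a. The part of such cells in the Ccl1 values was not tested. Of the 9 cells, 8 had more UMIs than the median of their library and 0 fell in the 5% of top doublet scores. The doublet caller marked too few cells to have worked, so whether the 9 cells were doublets was not tested.

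**Figure D2:**
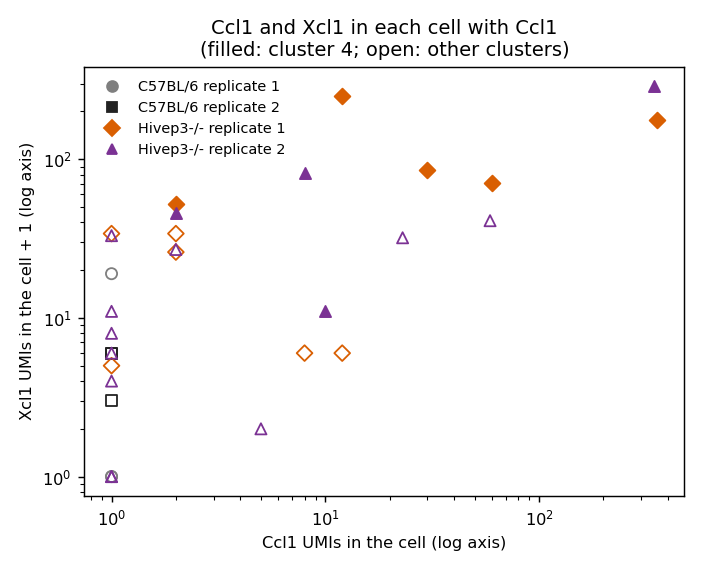
Ccl1 UMIs against Xcl1 UMIs plus 1 in each cell with Ccl1 (both log axes); colour and marker give the library, and filled points are cells of cluster 4. The cell with 357 Ccl1 UMIs has 176 of Xcl1 and the cell with 344 has 288, while cells with 1 Ccl1 UMI range from 0 Xcl1 UMIs upward.

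Xcl1, the ligand that draws Xcr1-bearing dendritic cells, was by contrast a common transcript. It was counted in 2663, 1956, 2858 and 2298 cells (C57BL/6 replicates 1 and 2, then Hivep3-/- replicates 1 and 2), with 8179, 6202, 15957 and 14885 UMIs. Over all cells its level was 187 and 252 CPM in C57BL/6 and 443 and 471 CPM in Hivep3-/- cells, without overlap (log2 difference 1.06, SE 0.168). Within iNKT1-like cells the difference was smaller and the groups overlapped. There the levels were 656 and 594 CPM in C57BL/6 against 650 and 1003 CPM in Hivep3-/- cells (625 ± 44.0 against 827 ± 250, SD, n = 2 each), a log2 difference of 0.40 with an SE of 0.208. Without Hivep3-/- replicate 2 it was 0.06. After thinning, 58.5% and 59.9% of C57BL/6 iNKT1-like cells had an Xcl1 UMI against 63.2% and 71.8% of Hivep3-/- cells. Without thinning the shares were 69.7% and 80.2% against 88.3% and 91.1%.

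Outside the iNKT1-like class, Xcl1 was high in cluster 4, at 429 and 355 CPM in C57BL/6 and 842 and 1014 CPM in Hivep3-/- cells, a ratio of means of 2.37 without overlap. In cluster 3, an unnamed cluster led by Gm8369, Izumo1r and Klra3, it was 349 and 330 CPM against 419 and 615 CPM. The other named classes held little of it. Levels were 25.6, 21.2, 38.1 and 51.8 CPM in iNKT2-like cells, 24.2, 3.797, 20.7 and 21.5 CPM in iNKT17-like cells and 14.1, 3.002, 21.8 and 14.0 CPM in cycling-like cells. Stage 0-like cells had 7.63, 4.53, 1.94 and 4.18 CPM. The neighbouring classes iNKT17-like, cycling-like and stage 0-like were not ordered the same way in every library. The thinned share of stage 0-like cells with an Xcl1 UMI was 0.781% to 1.39% per library, at median depths of 3274 to 5589 UMIs, and served as the level that free RNA and misplaced cells can give. In iNKT2-like cells, with medians of 7886 to 9831 UMIs, the thinned share was 3.26% to 4.24%. A few very high cells appeared in the knockout only. The top Xcl1 cell of the C57BL/6 libraries held 28 and 22 UMIs and that of the Hivep3-/- libraries 278 and 288, and leaving out the top 3 cells per library moved the ratio of unscaled CPM over all cells from 2.22 to 2.15.

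**Figure D3:**
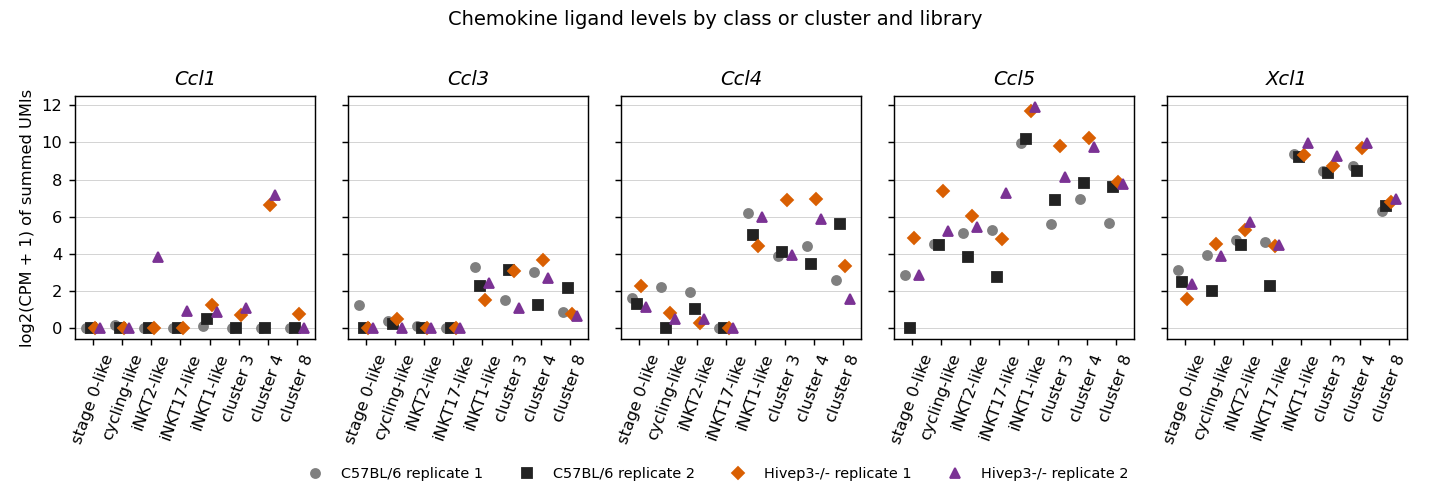
Level of each ligand, as log2(CPM + 1) of UMIs summed per library, in the 5 named classes and 3 unnamed clusters; each point is a library. Xcl1 is at 329.5 CPM or more in every library in iNKT1-like cells and clusters 3 and 4. Ccl1 is highest in cluster 4 of the 2 Hivep3-/- libraries, at 99.8 and 143 CPM, followed by 13.3 CPM in iNKT2-like cells of Hivep3-/- replicate 2.

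Ccl5, a ligand of Ccr1 that effector and memory lymphocytes store as message, showed the most widespread difference between genotypes. In iNKT1-like cells it stood at 983 and 1139 CPM in C57BL/6 and at 3308 and 3838 CPM in Hivep3-/- cells (1061 ± 110 against 3573 ± 375, SD, n = 2 each). The groups did not overlap, with a log2 difference of 1.75 (SE 0.165). Both the share of cells and the amount per cell differed. After thinning, 27.8% (26.1% to 29.6%) and 27.8% (25.7% to 30.1%) of C57BL/6 iNKT1-like cells had a Ccl5 UMI, against 51.2% (49.2% to 53.2%) and 52.2% (50.0% to 54.4%) of Hivep3-/- cells. The thinned cells with a UMI held 6.86 and 8.17 UMIs each in C57BL/6 and 14.7 and 14.4 in Hivep3-/- cells. Cells with 10 or more thinned UMIs made up 6.93% and 8.44% against 24.3% and 26.0%. In contrast to Ccl1, the 10 cells with most Ccl5 carried only 7.62%, 11.4%, 5.26% and 4.76% of its UMIs.

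**Figure D4:**
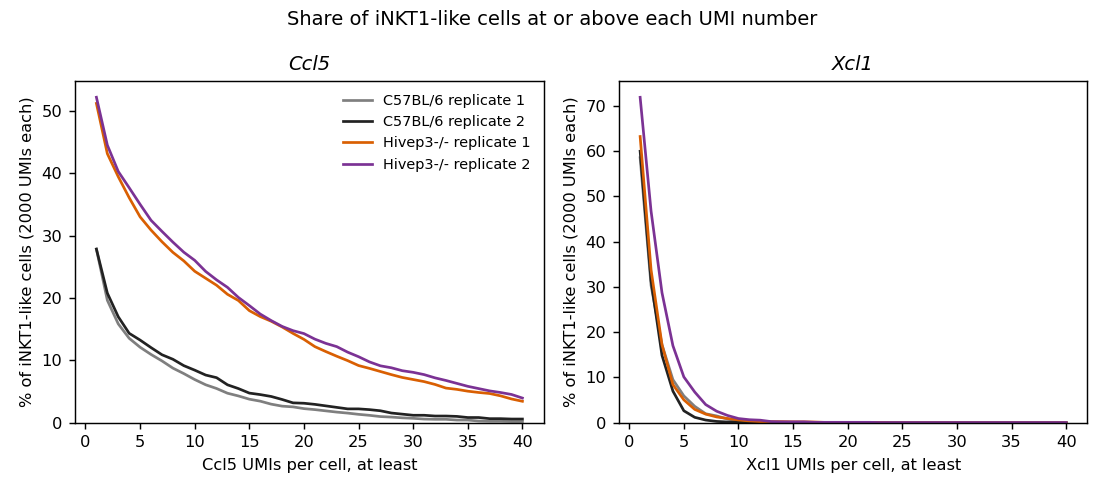
Percentage of iNKT1-like cells, each thinned to 2000 UMIs, with at least the number of Ccl5 (left) or Xcl1 (right) UMIs on the x axis; each line is a library. For Ccl5 the 2 Hivep3-/- lines start at 51.2% and 52.2% and stay above the C57BL/6 lines, which start at 27.8%, and for Xcl1 only Hivep3-/- replicate 2 stands apart.

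The iNKT1-like class held several clusters, and Ccl5 was higher in the knockout in each of the 3 large ones. In cluster 1, led by Ifitm2 and Gzma, it was 2525 and 2899 CPM in C57BL/6 and 4805 and 6072 CPM in Hivep3-/- cells, a ratio of means of 2.01. In cluster 0, led by Fgl2 and Il12rb2, it was 239 and 228 CPM against 1015 and 869 CPM, a ratio of 4.03. In cluster 7, led by the interferon-induced genes Ifit3 and Ifit1, it was 499 and 875 CPM against 1629 and 2581 CPM, a ratio of 3.06. Cluster 1 also took a larger share of the knockout cells (23.9% and 23.8% against 11.8% and 13.6%), so the class value combined levels within clusters with their sizes. Cluster 13, led by Klrg1 and S1pr5, held 36 cells of Hivep3-/- replicate 1 and 2 cells in each other library. Its 36 cells reached 42660 unscaled CPM of Ccl5. The 2 cells of Hivep3-/- replicate 2 reached 44587 unscaled CPM, and those of C57BL/6 replicates 1 and 2 reached 1799 and 28897, from 4 and 132 UMIs. Leaving cluster 13 out moved the iNKT1-like ratio of unscaled CPM from 3.53 to 3.32.

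In the other classes Ccl5 was lower, and its genotype values were less even. Cluster 4 had 123 and 223 CPM against 1217 and 864 CPM, and cluster 3 had 47.2 and 117 CPM against 880 and 279 CPM. Cycling-like cells had 22.2 and 21.0 CPM against 164 and 36.2 CPM, and iNKT17-like cells had 37.4 and 5.70 CPM against 26.8 and 152 CPM. In iNKT2-like cells the levels were 33.3 and 13.4 CPM against 64.6 and 42.4 CPM (log2 difference 1.13, SE 0.380). That sign turned to -0.14 without the highest doublet scores and to -0.48 at the higher cluster resolution, so no direction is given for iNKT2-like cells. Stage 0-like cells had 6.24, 0, 28.0 and 6.27 CPM, from 9, 0, 72 and 15 UMIs. Their thinned share was 1.69% or less in each library. The thinned share in cycling-like cells was 2.01% and 1.30% in C57BL/6 and 5.41% and 2.59% in Hivep3-/- cells.

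**Figure D5:**
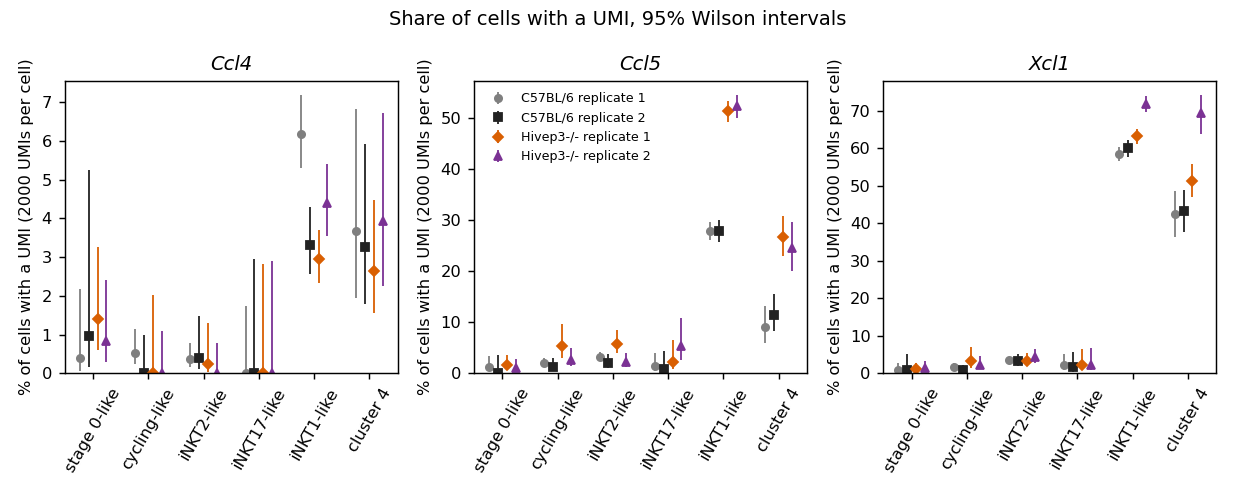
Percentage of cells with at least 1 UMI of Ccl4, Ccl5 or Xcl1 after each cell was thinned to 2000 UMIs, in the 5 named classes and cluster 4; points are libraries and bars are 95% Wilson intervals for counting error. In iNKT1-like cells Ccl5 separates the libraries by genotype (27.8% and 27.8% against 51.2% and 52.2%), while for Ccl4 C57BL/6 replicate 1 is highest at 6.18%.

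Ccl4, which attracts T cells and monocytes, was counted in 286, 126, 168 and 183 cells, with 842, 322, 1132 and 845 UMIs. Over all cells its level was 19.2 and 13.1 CPM in C57BL/6 and 31.4 and 26.7 CPM in Hivep3-/- cells (log2 difference 0.84, SE 0.221). In iNKT1-like cells the order was different. There it was 72.4 and 31.9 CPM against 20.3 and 61.5 CPM, so the groups overlapped (log2 difference -0.37, SE 0.505), and the sign changed without C57BL/6 replicate 1 (0.35) or without Hivep3-/- replicate 1 (0.23). The thinned shares of iNKT1-like cells with Ccl4 were 6.18%, 3.32%, 2.95% and 4.38%, against 0.391%, 0.962%, 1.41% and 0.833% of stage 0-like cells, and iNKT17-like cells held 0 Ccl4 UMIs in all 4 libraries. In cluster 4 it was 20.2 and 10.0 CPM in C57BL/6 against 122 and 58.6 CPM in Hivep3-/- cells, from 25, 22, 563 and 149 UMIs. The thinned share of cluster 4 cells with Ccl4 was 3.67% and 3.27% against 2.65% and 3.92%, and without thinning it was 3.95% and 4.56% against 5.68% and 7.52%. The thinned shares overlapped, and the higher totals lay in cells with many UMIs. In Hivep3-/- replicate 1 the top 10 cells held 60.3% of all Ccl4 UMIs, and the top cell alone held 183. In the other libraries the top 10 cells held 16.0%, 30.4% and 35.0%. Without the top 3 cells per library the cluster 4 ratio of unscaled CPM moved from 6.36 to 5.38.

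Ccl3, a ligand of Ccr1, was the sparsest ligand after Ccl1, with 106, 52, 100 and 64 UMIs in 56, 19, 39 and 42 cells. Over all cells the groups overlapped, at 2.42 and 2.11 CPM against 2.78 and 2.03 CPM. In iNKT1-like cells it was 9.00 and 3.93 CPM in C57BL/6 and 1.86 and 4.32 CPM in Hivep3-/- cells, so the groups overlapped (log2 difference -1.13, SE 0.493). It had 0 UMIs in iNKT17-like cells of all 4 libraries and 1 UMI in all iNKT2-like cells. The thinned share of iNKT1-like cells with Ccl3 was 1.16%, 0.603%, 0.291% and 0.626%. In stage 0-like cells 1 thinned cell of C57BL/6 replicate 1 had it (0.391%) and 0 in the other libraries, so at this depth the share in Hivep3-/- replicate 1 was not above that level.

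Ccl3, Ccl4 and Ccl5 were found in the same iNKT1-like cells more often than the product of their shares, by only a few cells for Ccl3 with Ccl5. For that pair, 11, 4, 6 and 8 thinned cells were observed against 8.08, 2.78, 3.58 and 6.26. After thinning, 8 of 29, 2 of 10, 3 of 7 and 4 of 12 cells with Ccl3 also had Ccl4, against 5.93%, 3.21%, 2.83% and 4.20% of the cells without it. Cells with Ccl4 had Ccl5 in 50.3% and 54.5% of cases in C57BL/6 and 83.1% and 88.1% in Hivep3-/- libraries, against 26.4%, 26.9%, 50.2% and 50.5% of cells without Ccl4. In iNKT1-like cells Ccl5 and Xcl1 met at the product of their shares, with 413, 288, 778 and 700 cells observed against 409, 277, 779 and 718. In iNKT2-like cells this pair met more often, though in few cells, with 8, 1, 3 and 2 observed against 1.86, 0.326, 0.816 and 0.467. Cells of a library share its depth and its free RNA, and no test was made. The iNKT1-like class also pools clusters with unlike shares. In C57BL/6 the mean thinned shares of Ccl5 and Ccl4 were 53.1% and 7.39% in cluster 1 and 15.8% and 3.82% in cluster 0. The part of this pooling in the shared detection was not tested. In the 3 libraries with 20 or more iNKT1-like cells carrying Ccl3, the genes with the highest folds in those cells were Ccl4 (7.29 to 11.3 times), Ccl5 (2.33 to 3.90 times) and Tagap, a GTPase-activating protein gene of activated T cells (1.87 to 2.57 times). Another 7 genes, Cryzl1, Mavs, Serpina3g, Xpo7, Gm4208, Hps3 and Cul4a, had lowest folds of 1.74 to 1.84. No library had 20 iNKT1-like cells with Ccl1.

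Across 20 sums (5 classes in 4 libraries, which share cells, depth and class structure), the profile of Xcl1 was most like those of Klrd1 (r = 0.98), H2-Q6 (r = 0.98) and Nkg7 (r = 0.98). Ccl5 was most like Ifitm2 (r = 0.96), Klrd1 (r = 0.95) and Itga1 (r = 0.95). Ccl4 was most like Ifng (r = 0.95), Il12rb2 (r = 0.95) and Klra9 (r = 0.94), and Ccl3 most like Dennd4a (r = 0.92), Il12rb2 (r = 0.91) and Klra9 (r = 0.90). For Ccl1, at a mean of 0.851 CPM, the highest values were weak (Dr1, r = 0.53, Fuca2, r = 0.50, and Rpl10-ps3, r = 0.49). The sums leave out the unnamed clusters, and so cluster 4, which held 94.7% and 79.1% of the knockout Ccl1 UMIs. The Ccl1 values therefore do not describe the cells that held most of its UMIs. Klrd1, Nkg7, Ifng, Il12rb2 and Itga1 are genes of NK cells and type 1 effector T cells.

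A list of 26 genes induced by T cell receptor signals or by handling differed between libraries more than between cells with and without a ligand. In iNKT1-like cells it summed to 11331 and 5293 unscaled CPM in C57BL/6 and 3578 and 6555 CPM in Hivep3-/- libraries. Cells with Ccl4 were at 1.06, 1.02, 1.13 and 0.981 times the sum of cells without it, and cells with Ccl3 at 1.05, 0.995, 1.06 and 1.02 times. The 9 cells with 10 or more Ccl1 UMIs, 6 of them in cluster 4, summed to 5125 unscaled CPM. The cluster 4 cells without Ccl1 in the knockout libraries summed to 2712 and 4590. The part of handling in the ligand values was not tested.

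Ccr8, the receptor of Ccl1, was at 129 and 81.8 CPM in C57BL/6 iNKT2-like cells and at 256 and 281 CPM in Hivep3-/- ones, without overlap (log2 difference 1.34, SE 0.208, adjusted p 0.0569 by edgeR). In iNKT1-like cells it was 215 and 158 CPM against 260 and 323 CPM (0.64, SE 0.184, adjusted p 0.263 by edgeR). In iNKT17-like cells it was 57.7 and 54.1 CPM against 138 and 107 CPM (1.13, SE 0.212, adjusted p 0.122 by edgeR). In cycling-like cells it was 49.8 and 38.1 CPM against 100 and 40.03 CPM (adjusted p 0.455 by edgeR). None of these differences passed the threshold of 0.05. Over all cells Ccr1 had 1, 0, 0 and 0 UMIs, Ccr3 had 0, 0, 1 and 0, and Xcr1 had 6, 0, 1 and 1.

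The rest of the chemokine system was read from a list of 32 other ligands, of which 31 were in the files, and 23 receptors. Of the other ligands only 0 to 4 passed the count filter per class, and 0 were called by edgeR, with 0 to 1 per class at an unadjusted p under 0.05 and 0 to 1 by DESeq2. Receptors were called in 4 of the 5 classes, and they did not move one way. In iNKT1-like cells 2 of 12 tested receptors rose and 0 fell, where 0.77% of all genes tested were called. These were Cx3cr1, the fractalkine receptor of cytotoxic cells, from 6.29 ± 1.10 to 38.2 ± 5.25 CPM (log2 difference 2.61, SE 0.204), and Ccr10, from 17.9 ± 0.0721 to 59.2 ± 12.7 CPM (1.73, SE 0.189). In iNKT2-like cells Cx3cr1 rose and Ccr9, the receptor for the thymic and gut chemokine Ccl25, fell from 112 ± 0.357 to 8.09 ± 0.701 CPM (-3.79, SE 0.167), among 11 tested and with 0.348% of all genes called. In cycling-like cells Cx3cr1 rose, and Ccr9, Cxcr6, Ccr2 and Ccr7 fell by 4.58, 1.40, 1.03 and 0.78 on the log2 scale, among 11 tested and with 3.48% of all genes called. In stage 0-like cells Ccr9, Cxcr6 and Ccr2 fell by 1.44, 1.67 and 2.74 on the log2 scale, among 7 tested and with 0.32% of all genes called. In iNKT17-like cells 0 of 8 receptors were called by edgeR, 5 had an unadjusted p under 0.05, DESeq2 called 0, and 0.0657% of all genes were called. These counts turned on single libraries. The stage 0-like count was 1 without either C57BL/6 library and 1 without Hivep3-/- replicate 1, the iNKT2-like count was 1 without Hivep3-/- replicate 1 and 5 to 6 without a C57BL/6 library, and the cycling-like count was 3 without C57BL/6 replicate 2. The iNKT1-like count was 4 without C57BL/6 replicate 2, and the iNKT17-like count was 1 to 2 without either C57BL/6 library or Hivep3-/- replicate 2.

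For the ligands themselves, both Hivep3-/- libraries stood above both C57BL/6 libraries over all cells for 4 of the 5 (Ccl1, Ccl4, Ccl5 and Xcl1), where 23.6% of all genes tested did so. In iNKT1-like cells this held for 1 of the 4 that passed the filter on low counts, Ccl5, where 19.4% of all genes did. Only Ccl5 passed that filter in stage 0-like cells, and Ccl5 and Xcl1 passed it in cycling-like, iNKT2-like and iNKT17-like cells. These comparisons chose the genes, so nothing is read from the counts.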

How the data were processed

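Single-cell libraries were made with 10x 5′ chemistry. Per the submitters' processing notes, the authors used Cell Ranger 3.1.0 on mm10 and Seurat 3.1.4, and the deposited values are whole-number UMI counts per gene and barcode. Barcodes with 500 to 4100 genes, at least 1000 UMIs and under 6% mitochondrial UMIs were kept. Libraries were merged on mutual nearest neighbours (2000 variable genes, 30 components) and clustered at resolution 0.8 with Seurat 5.3.0. The naming rule for clusters was set after the clusters were seen. A doublet caller (scanpy 1.11.5) marked 0 to 5 cells per library, too few to have worked, so the highest 5% of scores were removed only as an alternative. Counts summed per library and class were compared with edgeR 4.0.16 (quasi-likelihood test, filterByExpr, TMM, 2 against 2 mice, p-values adjusted by Benjamini-Hochberg over all genes tested in a class), and DESeq2 1.42.0 was an alternative. The fit was tested on simulated data, drawn at a fixed spread with the real library sizes and no other difference between libraries of a genotype. It therefore cannot show how the fit behaves where real libraries differ. The members and lists were chosen with earlier results of these data known. Genes were named by a set rule: the members, their receptors, called list genes, the 3 most alike genes (of at least 20 CPM) and the 10 highest folds in cells with Ccl3 or Ccl1. The profile of cells with 10 or more Ccl1 UMIs was chosen after the values were seen. Intervals cover counting error only. The SE of a log2 difference was not fitted directly. It is the size of the difference divided by the square root of the edgeR F statistic. No test is read from it for the 5 ligands. P-values measure the spread between 2 libraries a genotype. Some items are not reported here.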

Additional observations from a re-analysis of the deposited data

Results flagged for a closer look

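For Ccl4 and Xcl1, the order of the genotypes was not the same in every named class or in the unnamed clusters 3, 4 and 8, counted where the 4 libraries held at least 20 UMIs together. The difference between these groups of cells was not tested. For Ccl4, both Hivep3-/- libraries stood above both C57BL/6 libraries in cluster 4 (ratio of mean CPM 5.98) and below them in iNKT2-like cells (0.169), where the latter rests on 37, 5, 1 and 2 UMIs. For Xcl1, the knockout libraries stood above in iNKT2-like cells (1.92), cluster 3 (1.52), cluster 4 (2.37) and cluster 8 (1.37) and below in stage 0-like cells (0.504), where 11, 3, 5 and 10 UMIs were counted. That stage 0-like level is the one used as background, and the thinned share of stage 0-like cells with Xcl1 went the other way (0.871% in C57BL/6 and 1.26% in Hivep3-/-, means of 2 libraries).

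Barcodes outside the thresholds also carried ligand UMIs in the knockout libraries, at more per barcode than in either C57BL/6 library. In Hivep3-/- replicate 1 these were 217 for Ccl3, 663 for Ccl4, 1068 for Ccl5 and 753 for Xcl1. In Hivep3-/- replicate 2 they were 10 for Ccl1, 7 for Ccl3, 40 for Ccl4, 729 for Ccl5 and 398 for Xcl1. A single barcode of replicate 1 accounted for 216 of the Ccl3, 655 of the Ccl4 and 478 of the Xcl1 UMIs. It held 13972 UMIs, 13 of Cd3e and 30 of Ifng, 0 of Lyz2, Csf1r and Cd79a, and 7.26% mitochondrial UMIs, which is why it was left out. The kept cells of that library held 100 Ccl3 UMIs in all.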

How the results depend on the processing

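The labels do not tie same-numbered mice to a shared litter or day, and there were 2 pairs, so the numbers were not taken to pair the samples (same-number correlation of deviations 0.135 to 0.217 by class and 0.0288 over all cells). With the replicate block, 344 stage 0-like, 1148 cycling-like, 351 iNKT2-like, 11 iNKT17-like and 195 iNKT1-like genes were called, against 28, 353, 34, 5 and 81 without it. Of the chemokine list, 4, 7, 7, 0 and 6 were called with the block, against 3, 5, 2, 0 and 2. The ligands' log2 differences kept their sign under it.

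Without the low-count filter 200, 1146, 392, 98 and 463 genes were called in the same order of classes, and 8, 7, 4 and 8 of the chemokine list in the last 4. DESeq2 called 98 iNKT2-like genes (4 of the list) and 151 iNKT1-like genes. RLE size factors gave 8 iNKT17-like genes. At resolution 0.4, 48 stage 0-like and 8 iNKT17-like genes and 4 iNKT1-like list genes were called, and at 1.2, 56 stage 0-like genes. Without the highest doublet scores 1 stage 0-like list gene was called. Leaving out 1 library gave 17 to 132, 150 to 344, 7 to 257, 9 to 79 and 49 to 128 genes, and 1 to 3, 3 to 7, 1 to 6, 0 to 2 and 2 to 4 of the list. Fewest iNKT2-like and iNKT1-like genes came without Hivep3-/- replicate 1. The cause of these changes was not tested.

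Leaving out 1 library gave log2 differences over all cells of 6.80 to 7.61 for Ccl1, 2.02 to 2.75 for Ccl5 and 0.86 to 1.29 for Xcl1, and in iNKT1-like cells of 1.64 to 1.86 for Ccl5 and 0.057 to 0.69 for Xcl1. Ccl5 in iNKT1-like cells was 1.92 at resolution 0.4. Without its top 10 cells per library Ccl1 no longer passed the filter and has no value. The share of iNKT1-like cells with Ccl5 differed by 23.8 percentage points (23.4 to 24.3 without 1 library, 25.8 without thinning, 22.9 thinned to 1000 UMIs), and that with Xcl1 by 8.29 (3.96 to 12.6, and 14.7 without thinning). Thinned, the top Ccl1 cell held 50.6% and 63.4%, and the top 10 held 100% in both knockout libraries. Leaving out 1 library turned signs, with ranges of -0.18 to 0.25 (also -0.01) for Ccl3 over all cells, -1.37 to 0.35 (also 0.23) for Ccl4 in iNKT1-like cells and -0.20 to 2.44 for Xcl1 in iNKT17-like cells, and of -2.51 to 0.351 points for the share of iNKT1-like cells with Ccl4 and -0.0529 to 0.0676 (also -0.00809) for that with Ccl1. Ccl5 in iNKT2-like cells turned to -0.48 at resolution 1.2 and to -0.14 without the highest doublet scores. The removals of top cells, of cluster 13 and the values per cluster were chosen after seeing the data. The Ccl1 values rest on a few cells, and those of Ccl3 on 52 to 106 UMIs per library.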
